A study of Mus musculus with 8 samples.

Results

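Of 32285 genes in the count table, 6 are described here: Mmp8, Mmp9, Retnlg, Asprv1, Wfdc17 and Plbd1. They were taken by name as late neutrophil genes that encode granule or secreted proteins. Mouse whole bone marrow cells were cultured for 1 week on irradiated AFT024 cells, a mouse embryonic liver fibroblast line used as a feeder layer, in long-term culture medium that contained hydrocortisone. The tested cultures also received deoxycholic acid, a secondary bile acid, at 35 µM, and the media control cultures did not. Lineage-negative cells were then sorted and sequenced, and the sources used here do not give the antibodies of that sort, the mouse strain or the age of the animals. Both groups share the feeder cells and the medium, so this is a culture model of neutrophil formation and not bone marrow itself.

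Neutrophils form in bone marrow from granulocyte-monocyte progenitors (GMP), and each step of maturation fills a different kind of granule. Primary granules, which hold myeloperoxidase and elastase, come first. Secondary granules with lactoferrin follow, then gelatinase granules, and proteins made last can end in secretory vesicles or leave the cell. Mmp9 encodes gelatinase B, the protease after which gelatinase granules are named, and Mmp8 encodes neutrophil collagenase. Retnlg encodes resistin-like gamma, a small secreted protein of mouse myeloid cells. Wfdc17 encodes a small secreted protein with a whey acidic protein domain, a fold found in protease inhibitors. Plbd1 encodes a phospholipase B-like protein first purified from human neutrophils, and Asprv1 an aspartic protease of retroviral origin that is best known from the skin.

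The files held 8520 deoxycholic acid cells with 131341422 unique molecular identifiers (UMIs, counts of captured RNA molecules) and 9346 media control cells with 183462851. Cell names give the group and not the sample, so the cells of a group stand as 1 library without replicates, and a test of deoxycholic acid against the control could not be made. Intervals given with a value are exact 95% intervals of counting error only and do not hold the spread between cultures. After filtering, 7755 deoxycholic acid cells with a median of 14424 UMIs and 8495 media control cells with a median of 18831 remained. Only 25 cell barcodes occurred in both libraries. Cells were clustered without the 6 genes and named from marker genes. GMP-like cells (clusters 3 and 7) made up 15.6% of deoxycholic acid and 17.5% of media control cells, immature neutrophil-like cells (clusters 0, 2 and 6) 32.4% and 30.4%, and mature neutrophil-like cells (cluster 1) 12.9% of both. The mature cluster had 10 of 12 mature neutrophil markers raised and also 6 of 9 immature ones. Of 10 monocyte markers 9 were detected in it, summing to 1445 CPM in deoxycholic acid and 1426 CPM in media control cells, with Irf8 at 0 in both. Of 8 macrophage markers 5 were detected, at 54.2 and 51.0 CPM, with C1qa, C1qb and C1qc at 0.

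The sequences upstream of the genes are shown because their RNAs come up at different points of maturation, and factors of the C/EBP and ETS families are known to act on granule genes. RefSeq (GRCm38.p6) gave a window for 5 of the 6 genes, without Mmp9. Each window holds the 250 bases before the gene's start, written 5′ to 3′ on the gene's strand. Capitals mark matches on either strand to TTNNGNAA, letters of C/EBP sites, and to GAGGAA, letters of ETS sites; no marked matches overlap. Mmp8 and Wfdc17 are shown as the pair with 2 C/EBP matches each, and Asprv1 as the window with none. The Mmp8 window is chr9:7558179-7558428 (plus strand), that of Wfdc17 chr11:83703806-83704055 (plus strand) and that of Asprv1 chr6:86627924-86628173 (plus strand).
Mmp8: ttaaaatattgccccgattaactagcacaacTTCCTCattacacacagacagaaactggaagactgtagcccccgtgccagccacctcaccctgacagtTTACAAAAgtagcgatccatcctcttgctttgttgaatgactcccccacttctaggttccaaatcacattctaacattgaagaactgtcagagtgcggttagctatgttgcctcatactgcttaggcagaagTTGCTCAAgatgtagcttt
Wfdc17: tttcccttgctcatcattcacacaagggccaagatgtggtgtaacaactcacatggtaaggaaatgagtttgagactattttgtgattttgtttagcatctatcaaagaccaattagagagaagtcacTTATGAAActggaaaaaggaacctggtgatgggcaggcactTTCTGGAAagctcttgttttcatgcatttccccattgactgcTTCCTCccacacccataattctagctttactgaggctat
Asprv1: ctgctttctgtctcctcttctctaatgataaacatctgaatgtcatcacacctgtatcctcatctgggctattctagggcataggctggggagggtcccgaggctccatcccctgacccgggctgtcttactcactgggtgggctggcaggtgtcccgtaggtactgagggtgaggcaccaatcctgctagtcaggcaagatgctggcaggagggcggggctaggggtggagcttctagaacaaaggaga

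Matches to TTNNGNAA stood in 4 of the 5 windows, and 36.8% of 32851 RefSeq windows of the same length had one. Retnlg and Plbd1 had 1 match each. Matches to GAGGAA stood in the Mmp8 and Wfdc17 windows, 1 in each, against 23.3% of all windows. TGANTCA, letters of AP-1 sites, was in none of the 5, against 6.75% of all windows, and TATAAA, searched on the gene's strand, was in none, against 7.59%. G and C made up 53.22% of bases on average over all windows. In windows with a TTNNGNAA match they made up 44.8% (Mmp8), 43.2% (Retnlg), 41.2% (Wfdc17) and 60.8% (Plbd1). The part of base composition in the matches was not tested. A match describes letters and not a bound site.

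The 6 genes came on at different points of the neutrophil series, with Asprv1 and Plbd1 first and Wfdc17 last. Levels are given as counts per 1000000 UMIs (CPM) summed over the cells of a stage, and the onset of a gene is the first stage at 10% or more of its highest stage. All 6 were highest in mature neutrophil-like cells. In both libraries together, Asprv1 stood at 2.49 CPM in GMP-like, 179 in immature and 951 in mature neutrophil-like cells. Its immature level was 18.9% of its mature level. Plbd1 stood at 0.223, 21.0 and 129 CPM in the same 3 stages, so that 16.3% of its mature level was present in immature cells. The onset of both genes was therefore in the immature stage.

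The other 4 genes had their onset in the mature stage. Retnlg was close to the border, at 128.99 CPM in immature and 1378 CPM in mature cells, or 9.36%. In deoxycholic acid cells alone its immature level was 10.2% of its mature level, which puts its onset in the immature stage, against 8.85% in media control cells. Mmp8 was at 81.0 CPM in immature and 1616 CPM in mature cells, or 5.02%. Mmp9 was at 3.43 CPM in immature and 210.3 CPM in mature cells, or 1.63%. Wfdc17 had the lowest immature share, 0.593%, with 1.80 CPM in immature and 303 CPM in mature cells. The order of the genes by this share did not depend on the library, since both gave Asprv1, Plbd1, Retnlg, Mmp8, Mmp9 and Wfdc17 in turn.

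A finer scale gave a like order. Cells of the 3 stages were ranked by a score of late over early marker genes that used none of the 6, and cut into 20 bins of about equal size. Asprv1 and Plbd1 reached 10% of their highest bin in bin 10, where 99.8% of cells were immature neutrophil-like. Retnlg reached it in bin 13, and Mmp8 and Mmp9 in bin 15. Wfdc17 reached it in bin 18, where 75.1% of cells were in the mature class. For orientation, Camp (cathelicidin, a secondary granule protein) reached 10% in bin 6, Ltf (lactoferrin) in bin 7 and Cxcr2 (a chemokine receptor of mature neutrophils, itself part of the score) in bin 13.

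**Figure D1:**
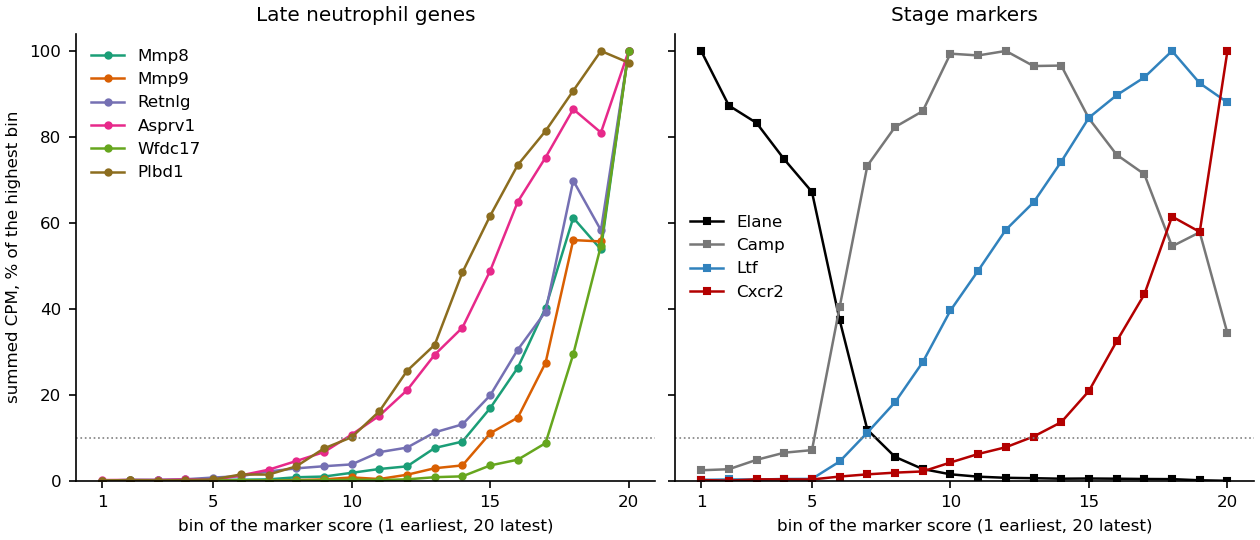
Summed CPM of each gene in 20 bins of a marker score over GMP-like, immature and mature neutrophil-like cells of both libraries, as a percentage of the gene's highest bin; the dotted line is 10%. Asprv1 and Plbd1 cross the line in bin 10 and Wfdc17 in bin 18; the stage markers Elane, Camp, Ltf and Cxcr2 are at right.

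The shape of the approach differed too. Plbd1 was at 61.6% of its highest bin by bin 15 and levelled off, with 90.7% in bin 18, its highest level in bin 19 and 97.3% in bin 20. Asprv1 was at 48.8% in bin 15 and 86.5% in bin 18. Mmp8 was at 16.9% in bin 15, 61.2% in bin 18 and 53.8% in bin 19, and had its highest level in bin 20. Mmp9 was at 11.1% in bin 15, 56.0% in bin 18 and 55.7% in bin 19, and was likewise highest in bin 20. Wfdc17 was at 3.58% in bin 15, 29.4% in bin 18 and 54.7% in bin 19. The first pair of genes thus flattened within the mature class, and Wfdc17 gained most in the last bins.

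The classes held different parts of each RNA. Of all Mmp9 UMIs, 88.6% lay in mature neutrophil-like cells. That share was 70.5% for Wfdc17, 56.6% for Retnlg, 53.1% for Mmp8, 48.7% for Plbd1 and 43.8% for Asprv1. Immature cells held 47.6% of Asprv1 and 45.6% of Plbd1 UMIs, but 2.40% of those of Wfdc17.

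A second place of high Mmp8 and Wfdc17 was cluster 11, a group of 175 deoxycholic acid and 168 media control cells led by Vcan, S100a4 and Ahnak. It was left unnamed: 7 mature neutrophil, 4 monocyte, 3 macrophage and 3 dendritic cell markers were raised in it, but no mature neutrophil marker stood among its 10 leading genes, where 1 monocyte and 1 dendritic cell marker did. Mmp8 stood there at 1730.1 CPM in deoxycholic acid cells, against 1644 in media control cells, close to its level in the mature class. Wfdc17 stood at 266 CPM, against 262. Mmp9, the other metalloproteinase, did not share this: it was at 2.75 CPM in deoxycholic acid and 9.80 CPM in media control cells of cluster 11. Cluster 11 held 16.4% of all Mmp8 UMIs and 18.2% of those of Wfdc17, but 0.840% of those of Mmp9. Among its cells 96.0% of deoxycholic acid and 94.6% of media control cells had an Mmp8 UMI at their own depth, with medians of 9732 and 13397 UMIs. Wfdc17 was seen in 48.0% and 48.2% of them.

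Outside both, Mmp8 was at 78.7 CPM in deoxycholic acid and 83.4 CPM in media control cells of cluster 10, which is led by Hpgd and Ccr2 and holds both progenitor and monocyte markers. Wfdc17 was also above its level in immature neutrophil-like cells there, at 6.30 CPM against 15.6 CPM in the media control. In cluster 13, led by Cdkn2a and Cald1, with 64 deoxycholic acid and 86 media control cells, Wfdc17 had no UMI with deoxycholic acid and stood at 91.2 CPM in the media control, where 1 cell held 37 of its 59 UMIs. With the 0 set to 3 counts its log2 ratio was -3.30, which passed the size used below for a call, as 42.2% of all genes tested in these few cells did. Retnlg was also found in unnamed clusters that were not placed in the neutrophil series, with median scores below those of the immature clusters. In cluster 8, led by Bnip3 and Ankrd37, genes known to respond to low oxygen, it stood at 113 CPM in deoxycholic acid and 119 CPM in media control cells. In cluster 5, another unnamed cluster with a median score of -2.82, against -1.77 in cluster 8, it stood at 13.6 CPM against 22.8.

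**Figure D2:**
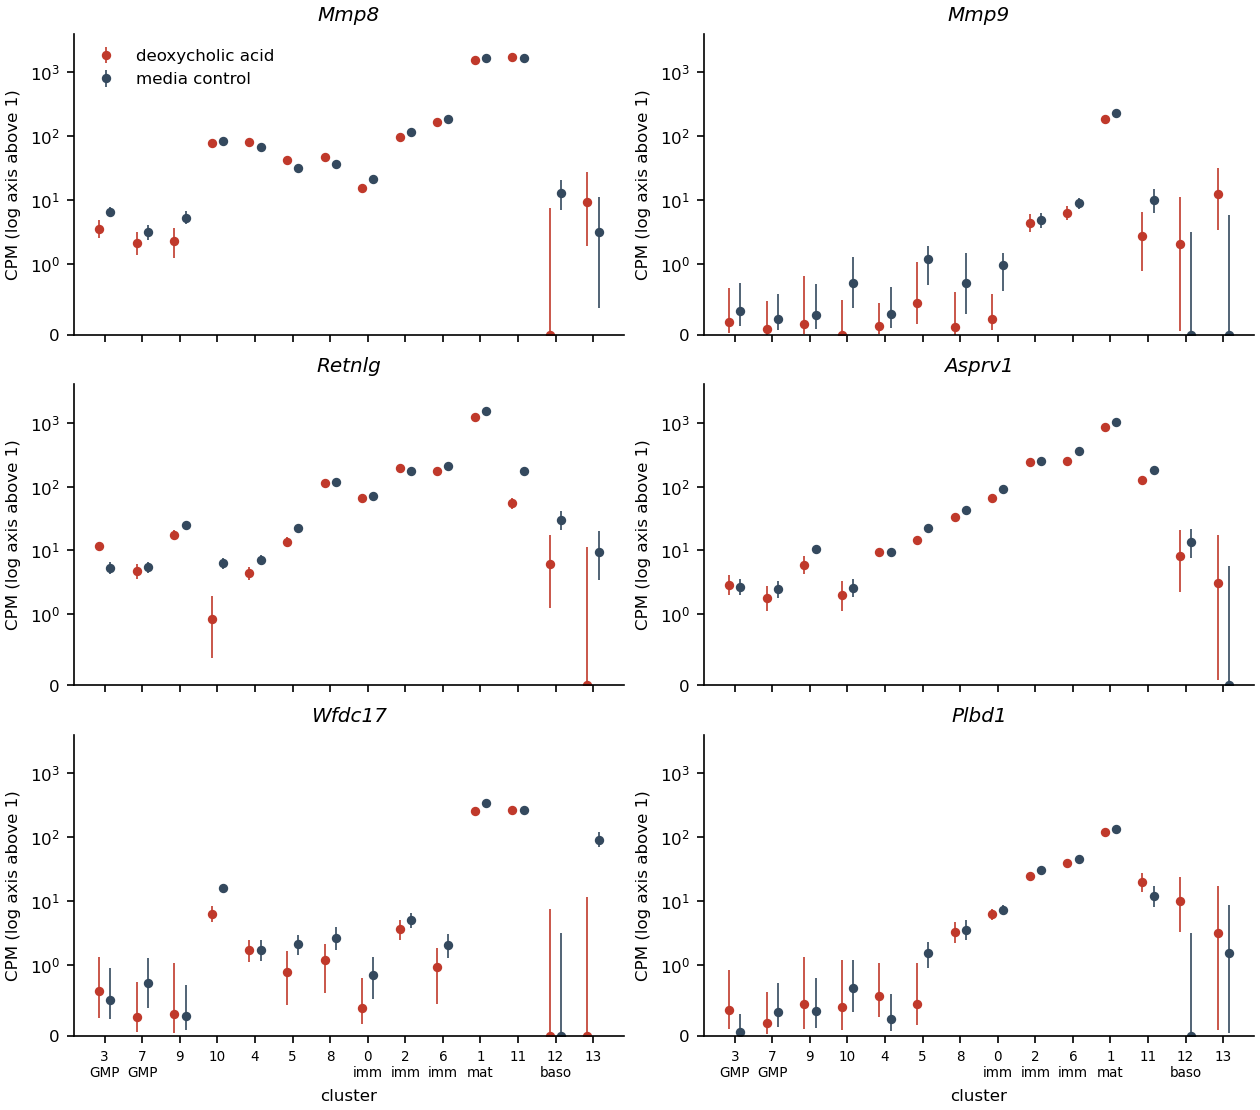
CPM of each gene in the 14 clusters with at least 50 cells in each library (GMP, GMP-like; imm, immature neutrophil-like; mat, mature neutrophil-like; baso, basophil-like; the rest unnamed), deoxycholic acid left and media control right; bars are exact 95% Poisson intervals and the axis is linear below 1. All 6 genes are high in cluster 1, and Mmp8 and Wfdc17 also in cluster 11.

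In mature neutrophil-like cells all 6 genes were lower in the deoxycholic acid library than in the media control, by amounts under the size used here for a call. A gene was counted as changed where its log2 ratio of deoxycholic acid over media control was 0.5 or more in size, given 20 CPM or more and a minimum of 50 UMIs in whichever library was higher. None of the 6 passed, against 3.45% of the 4294 genes tested in these cells. The median log2 ratio of the 6 was -0.29, and that of all genes tested was 0.05.

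Mmp8 was at 1534 CPM in deoxycholic acid cells, against 1678 CPM in media control cells (log2 ratio -0.13, -0.17 to -0.09). Mmp9 was at 183 CPM against 231 (-0.34, -0.45 to -0.23). These are the collagenase and gelatinase genes, and their intervals do not overlap. Retnlg was at 1225 CPM in deoxycholic acid cells, against 1495 CPM in media control cells (-0.29, -0.33 to -0.25). Asprv1 was at 843 CPM against 1034 (-0.30, -0.35 to -0.24). Wfdc17, the small whey acidic protein gene, was at 253 CPM against 341 (-0.43, -0.52 to -0.34). Plbd1 was at 121 CPM against 135 (-0.16, -0.30 to -0.02). The central 95% of all genes tested lay between -0.45 and 0.45, so each of the 6 values was inside the range common to genes of these cells. Markers of the mature class leaned the same way: 8 of 12 were lower and 4 higher. Their summed level was 4302 CPM in deoxycholic acid and 4785 CPM in media control cells. Ccl6 alone made up a large part of these sums, at 2090 CPM in both libraries together. Median depth was 5778 UMIs in deoxycholic acid and 6858.5 UMIs in media control cells of the class. The part of either in the differences was not tested.

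Immature neutrophil-like cells gave lower values for all 6 genes as well. None of the 4 that could be tested passed, against 3.14% of 4427 genes. Asprv1 was at 155 CPM in deoxycholic acid cells, against 199 CPM in media control cells (log2 ratio -0.36, -0.41 to -0.32). Mmp8 was at 73.8 CPM against 86.8 (-0.23, -0.31 to -0.16). Plbd1, which comes on in this stage, was at 19.1 CPM against 22.6 (-0.24, -0.39 to -0.10). Retnlg hardly differed, at 125 CPM against 132 (-0.08, -0.14 to -0.03). The remaining pair was too rare for the minimum, with Mmp9 at 2.81 CPM against 3.93 and Wfdc17 at 1.29 CPM against 2.20. The median of all genes tested in this stage was 0.08.

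Summed over all kept cells, which mixes levels in a class with the number of its cells, the differences were smaller. Mmp8 was at 153 CPM in the deoxycholic acid library, against 149 CPM in the media control (0.05, 0.02 to 0.07). Wfdc17 was at 18.6 CPM against 23.1 (-0.32, -0.40 to -0.24). Asprv1 was at 99.0 CPM against 113 (-0.19, -0.23 to -0.16), and Retnlg at 116 CPM against 123 (-0.09). None of 4 tested genes passed, against 4.86% of 4670.

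**Figure D3:**
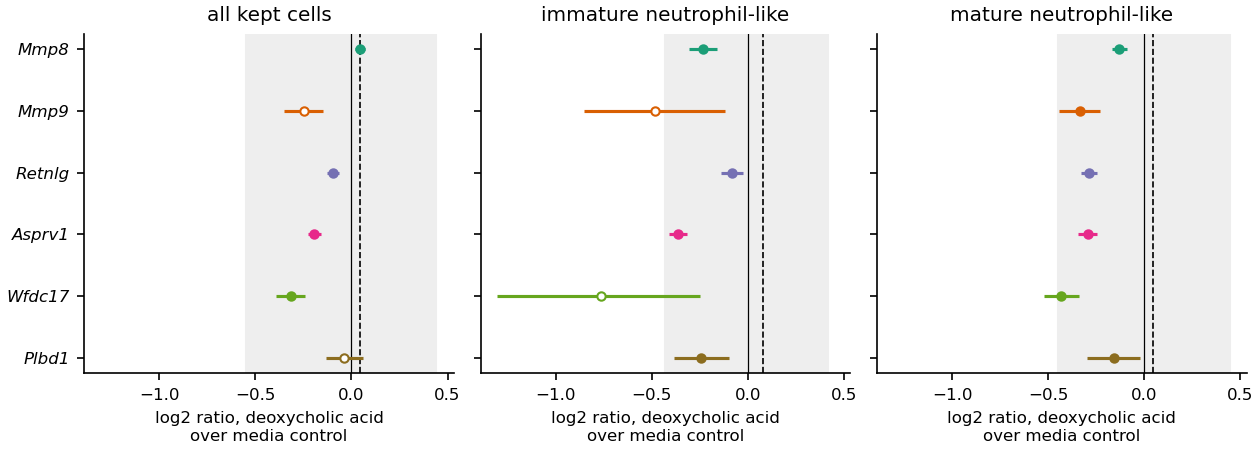
Log2 ratio of deoxycholic acid over media control for each gene in 3 sets of cells, with exact 95% counting intervals; open points are under the minimum of 20 CPM and 50 UMIs, the dashed line is the median of all genes tested and the grey band their central 95%. In the mature class all 6 points lie left of both lines and inside the band.

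The share of mature neutrophil-like cells with a UMI was lower in the deoxycholic acid library for all 6 genes. Because depth differed, each cell was thinned to 5000 UMIs, which left 633 of 999 deoxycholic acid cells and 798 of 1094 media control cells. The 366 and 296 cells left out had higher levels of all 6 genes in both libraries. Mmp9 stood at 348 CPM in those of deoxycholic acid and 390 CPM in those of the media control, against 137 and 209 CPM in the cells that stayed. The thinned shares therefore describe the deeper cells only. Mmp9 was then seen in 29.2% of deoxycholic acid cells (25.7 to 32.9), against 42.0% of media control cells (38.5 to 45.5). Mmp8 was seen in 65.7% against 73.7%, and Retnlg in 63.5% against 72.2%. Asprv1, the aspartic protease gene, was in 81.8% against 87.7%. Wfdc17 was in 12.2% against 18.2%, and Plbd1 in 38.7% against 44.9%. The intervals of the libraries met for Plbd1 (34.9 to 42.6 against 41.4 to 48.4). Thinned shares were not computed for other genes, so these values describe the 6 genes only.

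At each cell's own depth the shares were higher but in the same direction, from 18.7% against 23.1% for Wfdc17 to 83.9% against 88.6% for Asprv1. Basophil-like cells, which should lack these genes, had a median of 4212 UMIs in deoxycholic acid and 5776 in the media control. At own depth 0 of 89 deoxycholic acid and 10 of 149 media control basophil-like cells had an Mmp8 UMI, the 0 allowing a share of cells with a UMI of up to 3.37% (3 counts of 89). Retnlg was seen in 2.25% of deoxycholic acid and 3.36% of media control basophil-like cells, and Asprv1 in 2.25% and 5.37%. Mmp9 was seen in 1.12% and Plbd1 in 2.25% of deoxycholic acid cells and in none of the media control, and Wfdc17 in none of either library. For each of the 6 genes the share in mature cells at own depth was higher than this in both libraries.

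**Figure D4:**
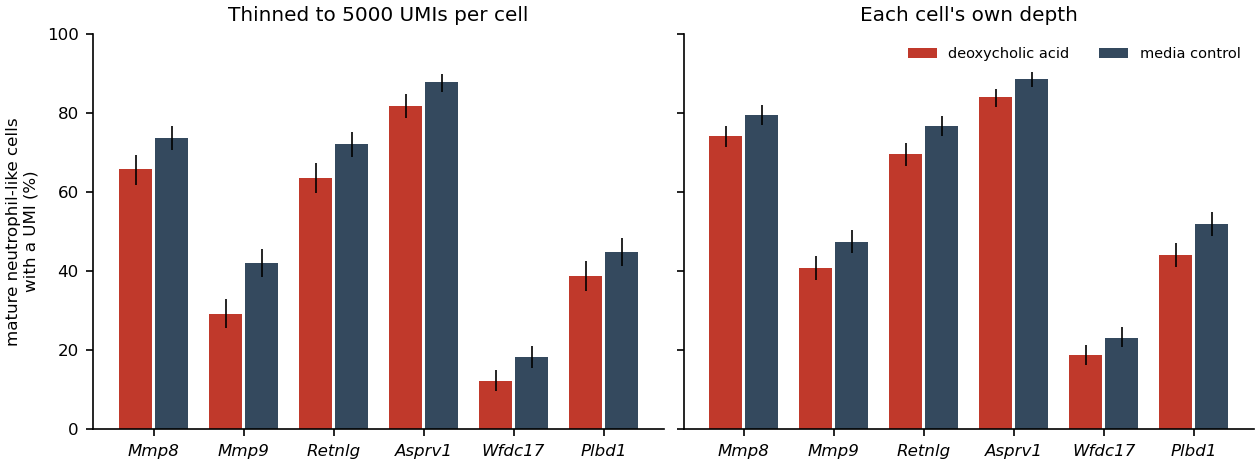
Percentage of mature neutrophil-like cells with at least 1 UMI of each gene, deoxycholic acid left and media control right, with exact 95% binomial intervals; cells thinned to 5000 UMIs at left (n = 633 and 798), all cells at their own depth at right (n = 999 and 1094). The deoxycholic acid bar is the lower of each pair.

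With each gene seen in a smaller share of deoxycholic acid cells, cells with many of the 6 were rarer as well. No number expected from the single shares was computed, so this is not a separate difference. Thinned mature cells in which all 6 were seen numbered 10 of 633 with deoxycholic acid and 31 of 798 in the media control, and cells with 5 of them were 10.3% against 18.4%. Cells with none were 2.84% against 1.63%. Most cells with Mmp9 also had Mmp8. Of deoxycholic acid cells with Mmp9, 89.2% had Mmp8, and of those with Mmp8, 39.7% had Mmp9. In the media control these shares were 94.0% and 53.6%. Mmp8 was in 65.7% of all thinned mature cells with deoxycholic acid and 73.7% in the media control, and Mmp9 in 29.2% and 42.0%. Mmp8 was the gene seen more often, so the unequal shares alone do not show that its cells enclose those with Mmp9. Cells with Wfdc17 had Mmp8 in 92.2% of cases with deoxycholic acid and 95.2% in the media control. Plbd1 was in 28.6% (22 of 77) and 37.9% (55 of 145) of them. Over all thinned mature cells Plbd1 was in 38.7% and 44.9%. With so few Wfdc17 cells that gap was not tested.

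Wfdc17 was spread over cells unlike the others. The 10% of mature cells with the most Wfdc17 held 93.1% of its UMIs with deoxycholic acid and 92.1% in the media control. The top 1% alone held 41.4% and 40.1%. Plbd1 had 41.6% and 40.6% in its top 10%. For Asprv1 these values were 31.3% and 29.7%, the most even of the 6, and for Mmp9 53.4% and 49.3%. A summed Wfdc17 level therefore rests on few cells, which its counting interval does not cover.

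**Figure D5:**
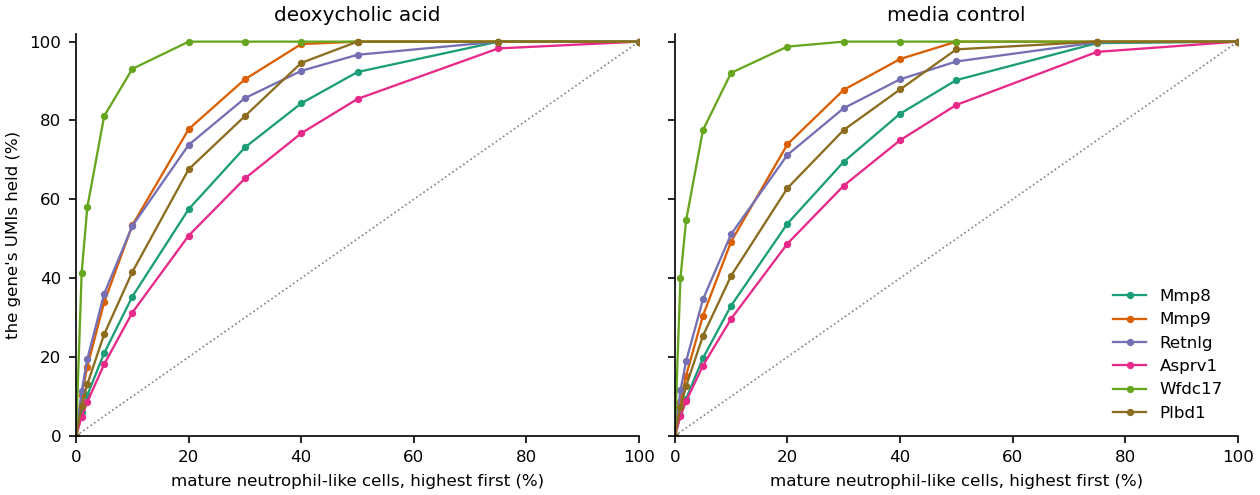
Share of each gene's UMIs held by the mature neutrophil-like cells with the most of it, deoxycholic acid left and media control right; the dotted line is an even spread. The Wfdc17 curve reaches over 90% at 10% of cells in both libraries.

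The size of the differences depended on which mature cells were summed. In cells with at least 5000 UMIs (633 and 798), a division made after the values were seen, Wfdc17 was at 109.7 CPM with deoxycholic acid, against 296 CPM in the media control (log2 ratio -1.43, -1.57 to -1.29). Mmp9 was at 137 CPM against 209 (-0.61, -0.74 to -0.47). Both then passed the threshold, as 4.18% of genes did. In the shallower 366 and 296 cells, Wfdc17 was at 766 CPM against 656 (0.22, 0.08 to 0.37), and Mmp9 at 348 CPM against 390 (-0.16, -0.36 to 0.04). All 6 genes were at a higher level in these shallow cells in both libraries, and such cells made up a larger part of the deoxycholic acid class. The ratio of Asprv1 changed little with depth, at -0.34 in deep and -0.25 in shallow cells. Retnlg was at -0.46 and -0.23, Mmp8 at -0.30 and -0.14, and Plbd1 at -0.23 and -0.06. For Mmp8 both values were below the -0.13 of the whole class.

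Along the score within the mature class, cut into 4 equal groups, Wfdc17 had ratios of 1.39, -1.51, -0.83 and 0.05 in order of score. It passed the threshold upward in the first group and downward in the second and the third, as 9.47%, 9.75% and 11% of all genes did in either direction. One deoxycholic acid cell held 29.1% of its library's Wfdc17 UMIs in the first group, and 1 media control cell held 30.9% in the second. Mmp8 was at -0.01, -0.27, -0.27 and 0.15, so that in the latest group it was 2395 CPM with deoxycholic acid against 2160 CPM in the media control. Retnlg was at -0.14, -0.31, -0.45 and -0.04. Mmp9 was at 0.21, -0.56, -0.35 and -0.26, and passed in the second group, at 137 CPM with deoxycholic acid against 202 CPM in the media control. Plbd1 was at -0.15, -0.32, 0.00 and -0.16. Asprv1 was lower with deoxycholic acid in all 4 groups, between -0.37 and -0.18.

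Single clusters did not share one direction for every gene. Mmp8 was higher with deoxycholic acid in clusters 4, 5 and 8, which are unnamed and have lower median scores than the immature and mature clusters. It was at 80.5 CPM against 66.5 in cluster 4 (0.28, 0.16 to 0.39) and 47.2 CPM against 37.1 in cluster 8 (0.35, 0.14 to 0.55). It was lower in the immature clusters, at 15.5 CPM against 21.2 in cluster 0 (-0.46, -0.68 to -0.24). Of the 12 clusters with at least 50 Mmp8 UMIs, 4 (these and cluster 11) had intervals above 0 and 6 below. Asprv1 was lower in 11 of 12 such clusters, with 7 intervals below 0 and none above. Asprv1 passed the threshold in cluster 6, the immature cluster with the highest score, at 248 CPM against 362 (-0.55, -0.62 to -0.47), where 3.23% of all genes tested did. It also passed in cluster 5, at 14.4 CPM against 22.3 (-0.64, -0.92 to -0.36), and so did Retnlg (-0.75, -1.04 to -0.47), 2 of 3 genes tested there, as 4.69% of all genes did. Retnlg passed in cluster 9 as well, at 17.5 CPM against 24.8 (-0.51, -0.82 to -0.20), where 8.64% of all genes did.

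Retnlg and Wfdc17 parted in cluster 11. Retnlg was at 54.9 CPM in its deoxycholic acid cells, against 174 CPM in its media control cells (-1.67, -2.00 to -1.35), while Wfdc17 was at 0.02 (-0.15 to 0.20) and Mmp8 at 0.07 (0.01 to 0.14). Asprv1 was at 127 CPM against 180 (-0.51). Retnlg and Asprv1 passed the threshold, 2 of 4 genes tested, as 12.5% of all genes did in these few cells. One media control cell held 17.4% of the Retnlg UMIs. Cluster 11 also differed in its markers, with macrophage markers summing to 287 CPM with deoxycholic acid and 191 CPM in the media control (6 of 8 higher, none at 0), and immature neutrophil markers to 21320 CPM against 25776 (8 of 9 lower). Their part in the result was not tested.

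Other genes of the late program differed little. The list of 22 used here includes all 12 markers of the mature class counted above, so the counts overlap. Mmp25, Adam8 and Slpi, given below among relatives, are also in this list. Of 22 gelatinase granule and late neutrophil genes, 21 could be tested in mature cells, 15 were lower and 6 higher with deoxycholic acid, and none passed; their median log2 ratio was -0.08. Ceacam10, an adhesion-family gene, was at 335 CPM against 409 (-0.29), and Ccl6, a chemokine gene, at 1869 CPM against 2260.1 (-0.27). Cxcr2, a chemokine receptor gene, did not differ beyond counting error (0.01, -0.11 to 0.14). Secondary granule genes were divided, with 5 of 9 higher and a median of 0.15: Ltf was at 6409 CPM against 5731 (0.16) and Camp at 8868 CPM against 11494 (-0.37).

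Relatives of the 6 genes were few in these cells. Of 13 metalloproteinase and inhibitor genes, 3 could be tested in mature cells, and all were lower without passing: Mmp25 at 41.3 CPM against 49.8 (-0.27), Adam8 at 135 CPM against 151 (-0.15) and the inhibitor gene Timp2 at 109.9 CPM against 110.0 (-0.00, -0.15 to 0.15). On chromosome 9 Mmp8 lies among other metalloproteinase genes, of which Mmp10, Mmp1b and Mmp20 had 0 UMIs in all kept cells, Mmp3 had 1 and Mmp27 had 369. No resistin family gene could be tested. Retnla and Retnlb lie beside Retnlg, with 137 and 108 UMIs, and 5.51% of the 31-base words of Retnlg also occur in Retnla. On chromosome 11 Wfdc17 lies between Ccl4 and Wfdc18 (18 UMIs), with Wfdc21 and Ccl6 close by. Of the WAP genes, Wfdc21 was at 6265 CPM against 6110.3 (0.04) and Slpi at 205 CPM against 226 (-0.14). Of 8 primary granule genes, 6 could be tested, and 1 was higher, 5 were lower and none passed. Plbd2, Napsa, Ctsd and Ctse, relatives of Plbd1 and Asprv1, gave 2 genes that could be tested, both higher without passing, with Ctsd (cathepsin D) at 900.3 CPM against 839 (0.10). Of 13 genes listed as candidate regulators of granule genes, 10 could be tested, and Cebpb alone passed, at 243 CPM against 410 (-0.76). Cebpe, which drives secondary granule genes, was at 262 CPM against 243 (0.11). Cebpb passed as well in GMP-like (-1.22) and immature neutrophil-like cells (-0.85) and over all kept cells (-0.92). Its lower level was therefore not particular to the mature class.

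Genes with the most similar pattern over the 14 clusters were found by Pearson correlation of log2(CPM + 10) among 7021 genes, as a description across clusters that share libraries. Plbd1 was most like Scrg1 (r = 0.987) and Trp53inp2, and Asprv1 most like Mctp2 (0.985), Hlx and Cd38. Retnlg was most like Plaur (0.980), the urokinase receptor gene, and Stk38. Mmp8 was most like Il4ra (0.965), an interleukin receptor gene, and Rbm47. Mmp9 was most like Oas3 (0.923) and Arg2, and Wfdc17 most like Prnp (0.949) and Il13ra1. Among the 6, Retnlg and Asprv1 were most alike (0.965) and Asprv1 and Wfdc17 least (0.483).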

How the data were processed

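Single-cell libraries were made with the 10x Genomics 3′ kit, aiming at 8000 cells a sample, per the labels' protocols. The submitters' processing notes name Cell Ranger 6.0, and the sources used here give no genome build or annotation. The deposited values are raw UMI counts per gene and cell for 17866 cells, not normalized by the authors. The labels list 4 samples in each group, but the 2 sets of cell names could be mapped to groups only. The design also names lithocholic acid, not analysed here.

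Cells with at least 300 genes and at most 10% mitochondrial UMIs were kept. Scrublet's own threshold marked 0.012% of deoxycholic acid and 0.011% of media control cells, so the cells with the top 6% of scores were removed (6.8% and 6.27% with ties). Clusters came from scanpy 1.11.5 and leidenalg 0.10.2 with 2000 variable genes, less the 6 described, 30 components, 15 neighbours and resolution 1. A cluster was named where at least 3 markers of a class were raised (20 CPM and a log2 difference of 0.5 over the other cells, 10 CPM added) and at least 1 stood among its 10 leading genes, if that class had the most markers on both counts; ties gave no name. The mature class is 1 cluster. UMIs were summed per library and class. Sums have exact Poisson, shares exact binomial (Clopper-Pearson) and ratios exact binomial intervals. These cover counting error only, as UMIs within a cell are not independent. A 0 in 1 library was set to 3 counts, and the limit given for a share of 0 is 3 counts of the total.

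The score is log2 of 12 late marker genes over 5 early ones, with 50 CPM added to each. The 6 genes, the lists, the naming rule and the thresholds were chosen with earlier results of these data known. All 6 genes are named, with list genes above the minimum and the 5 genes most like each. UMIs are counted at the 3′ end, so levels of different genes were not compared. The ratio calculation was tested on simulated data. Alternatives covered scaling, thinning, doublets, clustering and thresholds.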

Additional observations from a re-analysis of the deposited data

Results flagged for a closer look

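The ratio of deoxycholic acid over media control for Mmp8 pointed in opposite directions in different clusters, with counting intervals on opposite sides of 0. Its log2 ratio was 0.40 in cluster 5 (41.7 CPM with deoxycholic acid against 31.7 CPM in the media control) and -1.23 in cluster 9 (2.24 CPM against 5.26). Cluster 9 had 15 Mmp8 UMIs with deoxycholic acid and 76 in the media control, of which 1 cell held 17.1%. Retnlg did likewise, with 1.12 in cluster 3 (11.5 CPM against 5.29) and -2.74 in cluster 10 (0.938 CPM against 6.26). The Retnlg value of cluster 3 rests largely on a single cell, since 1 deoxycholic acid cell held 56.7% of the 127 UMIs of that library. In cluster 10, 1 media control cell held 47.6% of 103 UMIs. The other media control cells held the rest, and the deoxycholic acid cells had 7 in all. The differences between clusters were not tested, since there is 1 library per group.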

How the results depend on the processing

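In mature cells all 6 genes stayed lower with deoxycholic acid under the alternatives to the summed ratio, except that Wfdc17 was higher in cells under 5000 UMIs. Of the 6, 0 passed in the main comparison; 2 (Mmp9 and Wfdc17) passed in mature cells when cells were thinned to 5000 UMIs, where 6.04% of all genes did, 2 in cells of at least 5000 UMIs, 1 (Wfdc17) at Leiden resolution 0.5, 1 (Wfdc17) with the 6 genes among the variable genes, and 4 at a threshold of 0.25. Wfdc17 in mature cells ranged from -1.55 when thinned to 0.22 in shallow cells. In immature cells 1 passed with no minimum (Wfdc17) and 1 at 0.25 (Asprv1). In all kept cells 2 passed when thinned (Mmp9 and Wfdc17) and 1 at 0.25 (Wfdc17); Mmp8, higher in the main sum, was at -0.33 when thinned, and all 6 were higher in cells under 5000 UMIs, where no class was separated. Onset in the mature stage held for 4 genes, for 2 (Mmp9 and Wfdc17) at 5% of the highest stage, for 6 at 20% and for 3 at resolution 2, with thinning, with the 6 genes among the variable genes and in deoxycholic acid cells alone; Retnlg was the gene that moved in those. Shares of cells with a UMI were lower for all 6 at every depth tried. Of the 30 most similar genes, 3 were shared with Spearman ranks and 19 with resolution 2. Where no share of all genes is given with a count of passing genes, the count describes the 6 genes only. A lower threshold or no minimum lets at least as many genes of any kind pass, so those counts are no result about the 6. The cause of these changes was not tested. The divisions by depth and score were chosen after the data were seen. No paired analysis was possible because cell names carry no sample. Depth limits Mmp9 and Wfdc17 outside the mature class, and the number of cultures limits every difference.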
